A study of Mus musculus with 6 samples.

Results

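Among the long non-coding RNA (lncRNA) loci measured in mouse zygotes, 297 of 3307 (8.98%) were listed at coordinates that another locus of the same table also carried. These 297 loci formed 145 sets, 138 of 2 loci and 7 of 3, and were found by comparing the coordinate strings of the tables, with no use of expression values. The zygotes were of the C57BL/6 strain at the pronucleus stage, with 3 libraries under normal gravity (control) and 3 under simulated microgravity, and both groups share strain, stage and library protocol. The sources used here give neither the device and length of the exposure nor the number of zygotes in a library. They also do not say whether each library was made from its own embryos, so a p-value here reflects the spread among these 6 libraries alone, and that spread may be technical. No gene symbol, strand or exon structure is paired with a locus, so the tissue label could not be checked against marker genes and loci are named by assembly identifier and mm9 position.

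Long non-coding RNAs are transcripts without a translated reading frame, and many lie across, inside or opposite other transcription units. One stretch of genome can therefore give several RNAs, from opposite strands, from alternative start sites or from neighbouring units whose ends overlap. In the zygote most RNA was stored by the oocyte, and the new genome has only begun to be transcribed. Where several RNAs come from one interval, a table can keep them apart as separate loci or give their sum. Separate entries can then be compared by their listed levels.

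The values are RPKM, the reads of a locus scaled for its length and for the size of the library. Every set was analysed by the share of its summed RPKM that each locus held, and by the log2 ratio of RPKM + 1 between its loci. The length by which each locus was scaled is not given, so a share of RPKM is a share of length-scaled level and not of reads. RPKM is also relative to the size of the library, so it gives neither the number of cells nor the total RNA per cell. Read totals per library are unknown. The shared-coordinate loci held 12.6%, 12.6% and 12.7% of the summed RPKM in the control libraries and 12.2%, 12.4% and 12.6% in the microgravity libraries. Of the 297 loci, 285 (96.0%) were above 0 in all 6 libraries, beside 95.5% of the 3010 other loci, and between 2 and 5 were listed at 0 in a given library.

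Coordinate sharing was all or nothing in these tables. The 3307 loci occupied 3155 distinct intervals, and 0 of these intervals overlapped another. A pair of loci therefore either had exactly the same start and end or did not touch, and the labels do not say whether the printed interval is that of the RNA itself or of a block holding several. The intervals of the 145 sets were long, with a median span of 34218 bp against 9520 bp for loci with an interval of their own. Sets lay on 19 of the 20 chromosomes in the tables. Chromosome 1 had 17 and chromosome 8 had 14, while the X chromosome, with 108 loci, had 0.

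The order of identifiers gave a further property of the sets. Along each chromosome the identifiers ran through ascending positions, returned towards its start, and ran again, in 2 or 3 passes. A pass was taken to end where the start position stepped back by more than 1000000 bp. The 39 such steps were at least 9451488 bp and the 9 smaller ones at most 163499 bp. In 124 of the 138 sets of 2 (89.9%) the 2 loci came from different passes, 122 times from the first and the second. In the other 14 both came from the same pass, and in 12 of those they had consecutive identifiers. The sources used here do not say what a pass stands for.

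Within a set the level was mostly divided unequally. The leading locus, defined as the member with the higher mean RPKM over the 6 libraries, held a median of 75.8% of the summed RPKM in the 138 sets of 2, with quartiles of 63.2% and 86.2%. It held at least 90% in 26 sets and less than 60% in 29. The median absolute log2 ratio between the 2 loci was 1.70. The ratio exceeded 2-fold in 98 sets, 4-fold in 60 and 10-fold in 26. Either listing position could lead: the locus with the lower identifier led in 67 sets and the other in 71.

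**Figure D1:**
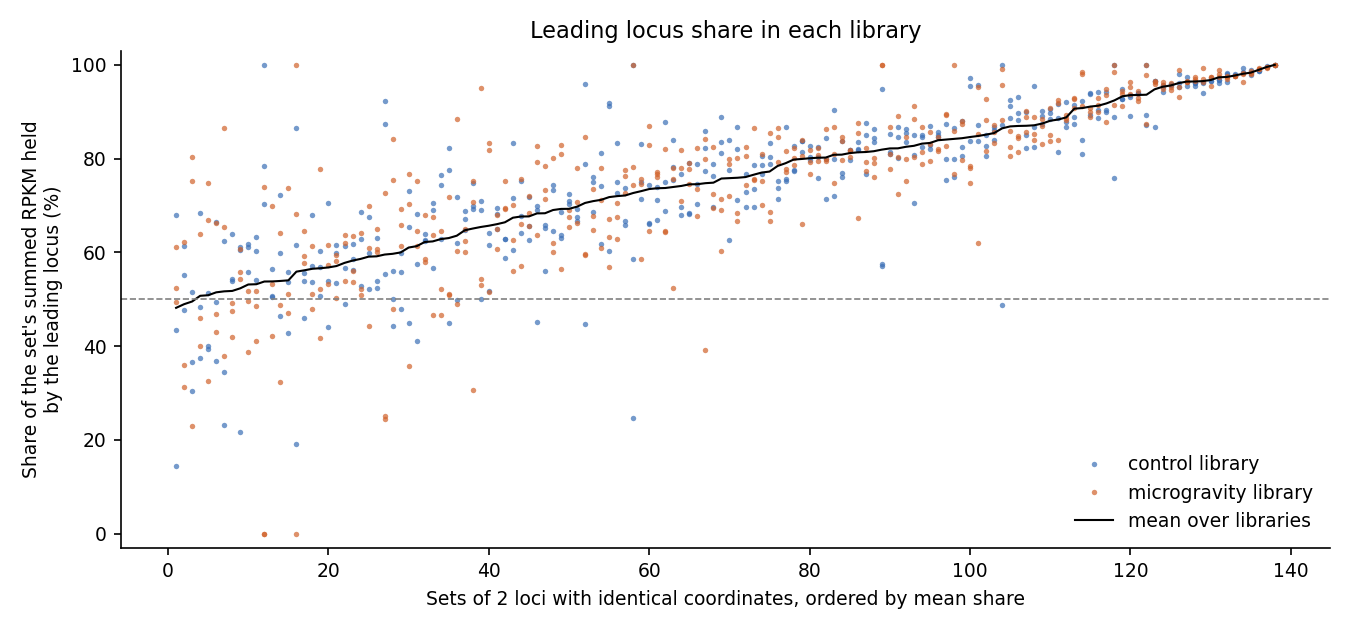
Share of the summed RPKM held by the leading locus (y axis, %) in each of the 138 sets of 2, ordered by mean share (x axis). Points are single control (blue) and microgravity (orange) libraries, the line is the mean over libraries, and the dashed line marks 50%; points of both colours scatter around the line, widely at the left and closely at the right, where 26 sets have shares of at least 90%.

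The most abundant set lay on chromosome 7 (54222161 to 54243580, mm9) and was held almost entirely by 1 of its loci. XLOC_027631 had 21718, 20675 and 22834 RPKM under normal gravity and 18842, 18458 and 23672 in microgravity. XLOC_026920, at the same coordinates, had 96.5, 45.4 and 114 RPKM in control and 142, 71.3 and 107 in microgravity. The leading locus was thus 255 times as high as the other in the control means, and held 99.6% ± 0.147 (SD, n = 3) of the set in control and 99.5% ± 0.195 in microgravity. The minor locus alone still lay above the median of all loci, which was 70.4 to 74.7 RPKM, in 4 of the 6 libraries.

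The second set, on chromosome 6 (10921481 to 10929750), had 2 abundant loci with a nearly constant ratio. XLOC_025526 had 16006, 14931 and 15117 RPKM in control and 16597, 14732 and 15079 in microgravity. XLOC_024982 had 3575, 3324 and 3856 RPKM in control and 3687, 3329 and 3665 in microgravity. The 2 groups overlapped for both loci. The leading share was 81.1% ± 1.21 (SD, n = 3) in control and 81.3% ± 0.731 in microgravity, and the log2 ratio differed by 0.02 with a 95% interval from -0.21 to 0.25 (limma, adjusted p = 0.973), well within 2-fold in both directions.

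The next 4 sets by summed level also kept 1 leading locus in all 6 libraries. On chromosome 10 (38895673 to 38950764) XLOC_003051 had 4748 ± 446 RPKM (SD, n = 3) in control and 4603 ± 313 in microgravity, beside 107 ± 12.5 and 112 ± 11.2 for XLOC_002493. XLOC_014644 on chromosome 18 (38761186 to 38948707) had 3023 ± 346 and 2919 ± 220 RPKM. Its partner XLOC_015365 had 36.3, 44.2 and 34.3 RPKM in control and 29.5, 21.1 and 26.8 in microgravity, groups that did not overlap, although neither locus nor their ratio passed the test (limma, adjusted p = 0.707 for the partner and 0.651 for the ratio). XLOC_025538 on chromosome 6 (13820044 to 13846730) held 93.4% ± 1.28 of its set in control and 93.1% ± 1.66 in microgravity. XLOC_029162 on chromosome 8 (111900828 to 112014133) held 79.5% ± 3.33 and 80.8% ± 1.35, with 521 ± 87.1 and 477 ± 55.9 RPKM for its partner XLOC_029748. Both members of that last set were above the upper quartile of all loci, 184 to 199 RPKM, in every library. The fourth-largest ratio of all sets of 2, after those of chromosomes 7, 18 and a set on chromosome 15 given below, was on chromosome 13 (63593901 to 63607263), where XLOC_008519 held 98.4% ± 0.533 and 98.3% ± 0.411 beside XLOC_008051.

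At the other end were sets with no lasting leader. The 4 smallest absolute mean log2 ratios, between 0.01 and 0.08, went with a spread over the 6 libraries of 0.75 to 1.46 (SD), far above the ratio itself. On chromosome 12 (18958829 to 18962510) XLOC_006409 had 142, 78.7 and 116 RPKM in control and 84.7, 125 and 110 in microgravity. XLOC_006819 had 65.6, 131 and 124 RPKM in control and 126, 70.2 and 129 in microgravity. The locus that led therefore changed from library to library within each group. Mean ratios near 1 of the same kind were found on chromosome 5 (73648076 to 73668859; XLOC_023046 and XLOC_023749), chromosome 11 (59011724 to 59015688; XLOC_004409 and XLOC_005136) and chromosome 1 (193987934 to 194006657; XLOC_000687 and XLOC_001444), where each leading locus led in 3 of 6 libraries.

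The most one-sided set was also the only one with a locus below the level needed for testing. On chromosome 15 (30976431 to 31034138) XLOC_010623 was listed at 0.00520 RPKM in control replicate 1, at 0.00611 in microgravity replicate 3 and at 0 in the other 4 libraries. XLOC_011073 had 87.5, 93.7 and 108 RPKM in control and 107, 92.1 and 151 in microgravity. In all, 12 loci in 9 sets were listed at 0 in at least 1 library, 7 of them in 1 library and 5 in more. Such a 0 can be a failed estimate. One set, on chromosome 12 (9975175 to 10138345), had both loci at 0 in microgravity replicate 3, so its share there is undefined.

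In the sets of 3 the leading locus held a median of 47.4%, and 3 of the 7 sets had 1 leader in all 6 libraries. On chromosome 1 (77939550 to 77973768) 3 loci lay within a narrow range. XLOC_001002 had 505, 443 and 451 RPKM in control and 463, 419 and 456 in microgravity, XLOC_000288 had 491, 366 and 404 and then 408, 274 and 302, and XLOC_001003 had 391, 427 and 399.6 and then 298, 293 and 212. The share of XLOC_001002 was 36.1% ± 0.321 (SD, n = 3) in control and 43.0% ± 3.77 in microgravity. XLOC_001003 had the lower values in microgravity without overlap (log2 difference -0.61 ± 0.19, SE; limma, adjusted p = 0.498) while XLOC_001002 overlapped (-0.06, adjusted p = 0.935).

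A wider division was seen on chromosome 10 (111058513 to 111308969). XLOC_002808 had 569, 492 and 692 RPKM in control and 612, 892 and 872 in microgravity, XLOC_002809 had 206, 256 and 255 and then 198, 170.0 and 198, and XLOC_003343 stayed at or below 44.1 RPKM in every library. The log2 ratio of XLOC_002808 to XLOC_002809 was 0.77 ± 0.29 (SE) higher in microgravity (limma, unadjusted p = 0.0250, adjusted p = 0.631). In the third set by level, on chromosome 14 (44228219 to 44356835), XLOC_009418 had 308 ± 66.7 RPKM (SD, n = 3) in control and 418 ± 49.7 in microgravity, XLOC_009420 had 283 ± 22.8 and 331 ± 18.9, and XLOC_009421 had 191 ± 59.9 and 161 ± 49.6. The remaining 4 sets of 3 lay on chromosomes 2, 7 and 17, with mean leading shares from 45.9% to 80.4%.

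Sets whose loci came from the same pass of identifiers were the more one-sided. In all 14 of them 1 locus led in every library, against 85 of the 124 sets that joined different passes (68.5%), and the median leading share was 87.0% against 74.7%. The lower locus had a similar level in both kinds, with medians of 56.3 and 52.3 RPKM. In 11 of the 14 the locus with the lower identifier led, and in 56 of the 124. These counts describe 14 sets only and were not tested.

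Loci at identical coordinates were then set beside ordinary neighbours, to see whether sharing an interval went with a particular division. When all loci of a chromosome were put in order of position, 152 consecutive pairs had identical and 3135 had different coordinates. One locus led in all 6 libraries in 99 of the 138 sets of 2 (71.7%) and in 2196 of the pairs with different coordinates (70.0%). The median leading share was 75.8% in the former and 75.3% in the latter, and the median absolute log2 ratio was 1.70 in both. Division within a shared interval thus had about the same size as the difference between 2 loci that follow each other in order of position. The distance between such loci was not limited or measured, and they can lie far apart. The ratio varied less over the libraries in the sets, with a median SD of 0.54 against 0.66, while their lower loci were more abundant, at a median of 53.3 against 38.7 RPKM. At a lower locus under 20 RPKM this SD was nearly the same, 1.29 in 13 sets and 1.30 in 363 neighbour pairs. At 20 to 50 RPKM it was 0.63 in 52 sets and 0.78 in 1561 pairs. At 50 to 150 RPKM it was 0.45 in 55 sets and 0.50 in 918 pairs, and at 150 RPKM or more 0.32 in 18 sets and 0.36 in 293 pairs.

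**Figure D2:**
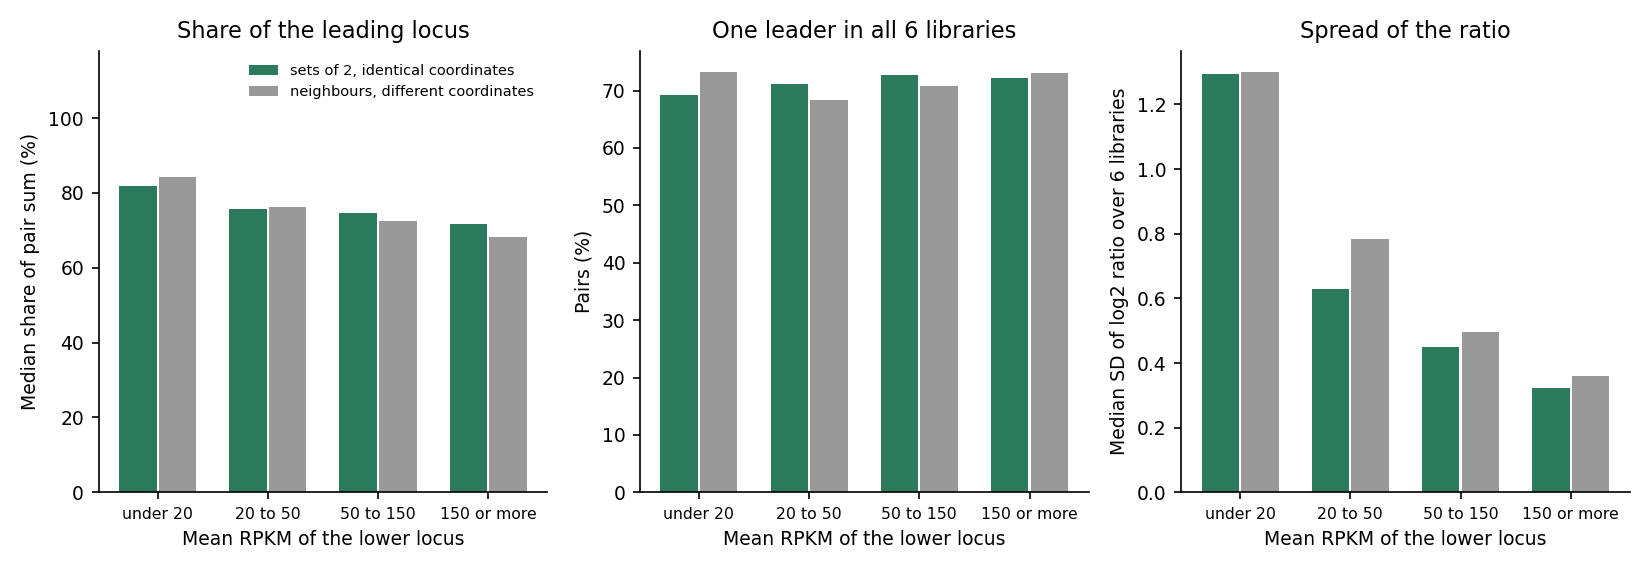
Sets of 2 loci with identical coordinates (green) and neighbouring loci with different coordinates (grey), by mean RPKM of the lower locus (x axes). Bars give the median share of the leading locus (left, %), the pairs with 1 leader in all 6 libraries (middle, %) and the median SD of the log2 ratio over 6 libraries (right); green and grey bars have similar heights in the first 2 panels, and the SD falls as the lower locus rises, from 1.29 to 0.32 in the sets.

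Over all sets, the loci of a set and ordinary neighbours had similar correlations from library to library. The correlation of their deviations from the group means of log2(RPKM + 1) over 6 libraries had a median of 0.08 in the 138 sets and of 0.05 in the neighbour pairs, and it was above 0 in 73 sets (52.9%) and in 53.1% of the pairs. Where the lower locus had 150 RPKM or more the median was 0.34 in 18 sets (12 above 0, 66.7%) and 0.05 in 293 neighbour pairs (52.2% above 0). At 50 to 150 RPKM it was -0.08 in 55 sets (49.1% above 0) and 0.07 in 918 pairs (54.1%). At 20 to 50 RPKM it was 0.0047 in 52 sets (50%) and 0.04 in 1561 pairs (52.0%). Under 20 RPKM it was 0.19 in 13 sets (61.5%) and 0.11 in 363 pairs (55.9%). In the 14 sets from the same pass it was 0.22 (9 above 0). Each such value rests on 6 libraries, is given as a description, and the differences were not tested. The extremes among the 138 sets by Pearson's r of log2(RPKM + 1) over the 6 libraries are given next, also as a description. Unlike the deviations above, this r includes any difference between the groups. Extremes of the neighbour pairs are not given, so these values are not set apart from theirs. The highest values were 0.95 for XLOC_022880 and XLOC_023588 on chromosome 5 (25159022 to 25164357), 0.94 for XLOC_029009 and XLOC_029614 on chromosome 8 (82684877 to 82704908) and 0.90 for XLOC_012037 and XLOC_012038 on chromosome 16.

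At the low end r was -0.96 for XLOC_007761 and XLOC_008245 on chromosome 13 (6021153 to 6054055). XLOC_008245 had 153, 133 and 115 RPKM in control and 116, 114 and 132 in microgravity, and XLOC_007761 had 23.1, 28.8 and 46.6 and then 57.7, 52.4 and 32.6. In each group the library with the most XLOC_008245 had the least XLOC_007761. Values of -0.86 on chromosome 14 (86547839 to 86565695; XLOC_009603 and XLOC_010008) and -0.80 on chromosome 2 (131079983 to 131083281; XLOC_017147 and XLOC_017926) followed.

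To compare conditions, the leader was first taken from the control libraries and then read in microgravity. One locus led in all 3 control libraries in 113 sets of 2. In 99 of these (87.6%) it also led in all 3 microgravity libraries, in 9 in 2 of them, in 4 in 1, and in 1 set in 0. Taken by group means, the leader was the same locus in 124 sets and another in 14. The locus chosen in control held a median of 76.9% of its set in microgravity. With the leader taken over all 6 libraries, its mean share and the number of libraries it led come from the same values, so the following counts are a description only. One locus led throughout in 68 of the 70 sets with a mean share of at least 75%, in 27 of the 39 between 60% and 75%, and in 4 of the 29 under 60%. Single libraries were alike in this respect, with 126 to 130 sets led by the leading locus in control and 124 to 127 in microgravity, the lowest number being that of microgravity replicate 2.

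Across the 138 sets the mean log2 ratio of the first to the second listed locus correlated between the groups, with Pearson's r of 0.947 and Spearman's rho of 0.933. This is a correlation across sets, which are not independent replicates, and the 2 axes share no library.

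**Figure D3:**
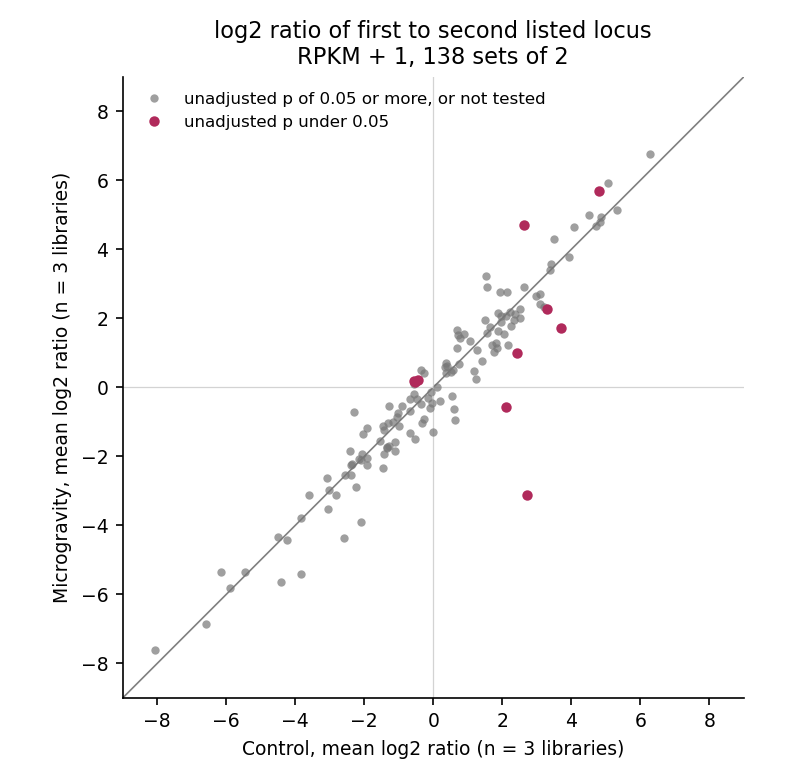
Mean log2 ratio of RPKM + 1 of the first to the second listed locus in control (x axis) and in microgravity (y axis), 1 point per set of 2, with the line of equality. Most of the 138 points lie along the line over the whole range; the 10 sets at unadjusted p under 0.05 in limma are drawn in red, and the point farthest below the line is the set of XLOC_019435 and XLOC_019985.

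The balance within sets was then compared between microgravity and control, in a limma fit over all 3275 neighbouring pairs in which both loci had at least 1 RPKM in at least 3 libraries. Of the 151 pairs with identical coordinates among them, 0 passed an adjusted p of 0.05, as did 0% of all pairs (lowest adjusted p = 0.631 in the sets and 0.260 over all pairs). At an unadjusted p under 0.05 there were 11 (7.28%), beside a background of 7.69% over all neighbouring pairs. By the ratio of first to second listed locus, 6 were higher in microgravity and 5 lower, beside 4.15% and 3.54% of all pairs. Without trend and robust moderation limma gave 0 adjusted and 8 unadjusted calls, 1 higher and 7 lower, beside 218 unadjusted calls over all 3275 pairs. The groups did not overlap in 25 of the 152 identical pairs (16.4%), beside 14.2% of all pairs. The median difference was -0.02 on the log2 scale, beside -0.01 over all pairs. Counts at the background level are not a result about the sets, and the count of 11 depended on single libraries. It was 4 (1 higher, 3 lower) without control replicate 2 and 6 (1 higher, 5 lower) without control replicate 3. Without microgravity replicate 1 it was 7 (3 higher, 4 lower). Of the pairs in these 3 runs, only 3, 4 and 3 were among the 11 of the main fit. Over all pairs the counts of these 3 runs were 186, 239 and 271, against 252 in the main fit.

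The intervals show what these libraries could bound. The 95% interval of the balance difference lay within 2-fold in both directions for 31 of 151 pairs (20.5%; 12.8% over all neighbouring pairs), so for the other pairs these libraries did not exclude a 2-fold shift in at least 1 direction. In 69 of the 137 sets of 2 tested the interval reached less than 2-fold to either side of its estimate. The estimate itself was under 2-fold in 120 of these sets. Each interval holds for 1 pair and was not adjusted over pairs.

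**Figure D4:**
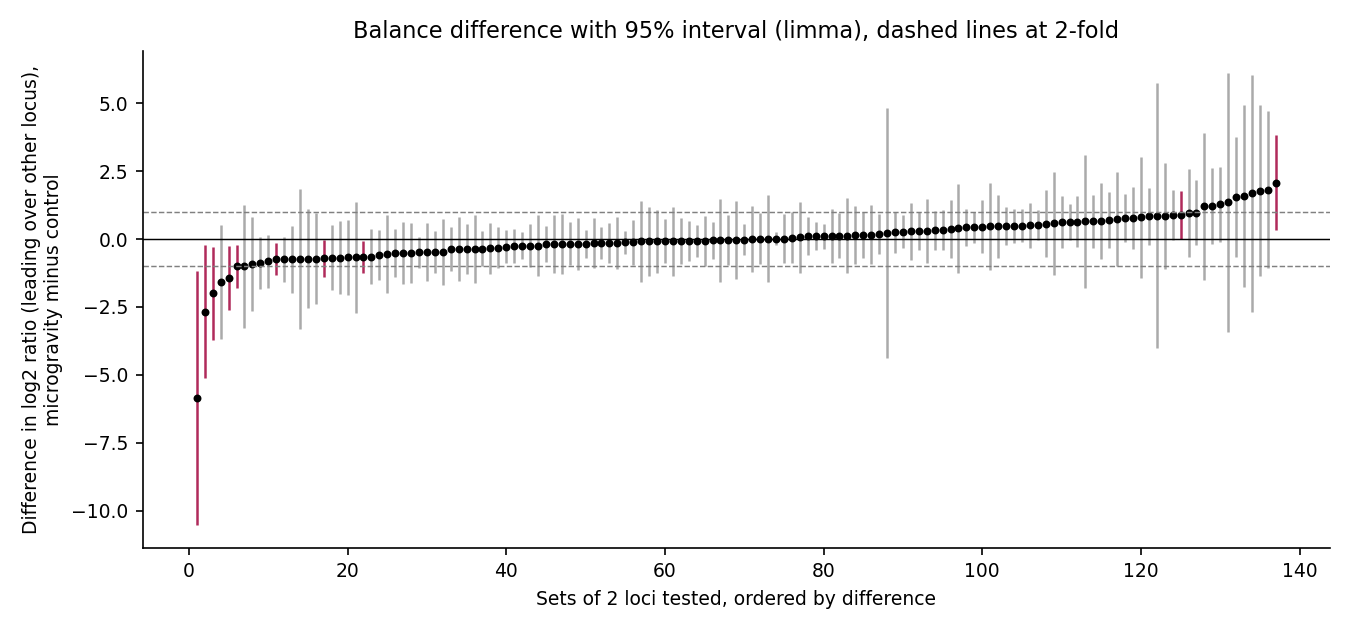
Difference in the log2 ratio of leading to other locus, microgravity minus control (y axis), with its 95% interval from limma, for the 137 sets of 2 tested, ordered by difference (x axis). Intervals drawn in red belong to the 10 sets at unadjusted p under 0.05, 8 below 0 and 2 above, and dashed lines mark 2-fold; most intervals cross both 0 and at least 1 dashed line.

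Of the 10 sets of 2 at unadjusted p under 0.05, 8 had a smaller and 2 a larger lead of the leading locus in microgravity. With the pairs from sets of 3 these were 8 (5.3%) and 3 (1.99%) of 151, beside 4% and 3.69% of all neighbouring pairs. Over all 138 sets of 2 the lead was smaller in 71 and larger in 67, with a median difference of -0.03 on the log2 scale, and the split among the 10 was not tested. None passed the adjusted threshold, and the values below are given as measurements (limma, adjusted p = 0.631 for each of these sets). The smallest p belonged to chromosome 1 (178549569 to 178647966), where the minor locus differed. XLOC_001362 had 40.3, 34.1 and 40.3 RPKM in control and 67.4, 77.7 and 67.3 in microgravity, without overlap. XLOC_001361 had 318, 416 and 418 RPKM in control and 278, 364 and 411 in microgravity, with overlap. The share of the leading locus was 90.8% ± 1.87 (SD, n = 3) in control and 82.9% ± 2.75 in microgravity, and the log2 ratio was lower in microgravity by 1.01 ± 0.35 (SE).

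On chromosome 19 (26647120 to 26660098) the 2 loci had nearly equal levels and differed in opposite directions. XLOC_016111 had 649, 567 and 744 RPKM in control and 532, 344 and 598 in microgravity. XLOC_015768 had 516, 350.5 and 474 RPKM in control and 538, 543 and 555 in microgravity. The first led in all 3 control libraries and in 1 of 3 microgravity libraries, and the log2 ratio differed by -0.75 ± 0.26 (SE). The summed level of this set differed by -0.08 ± 0.16 (SE; limma, adjusted p = 0.912), while its division had one of the smallest p-values.

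One set changed its leader cleanly with the group. On chromosome 6 (44573115 to 44603740) XLOC_025630 had 511, 376 and 603 RPKM in control and 395, 280.5 and 381 in microgravity, and XLOC_025091 had 430, 321 and 342 and then 437, 389 and 392. The former led in every control library and the latter in every microgravity library, with a share of XLOC_025630 of 57.4% ± 5.60 (SD, n = 3) and 46.2% ± 3.87. The difference of the log2 ratio was -0.65, with a 95% interval from -1.25 to -0.05 (limma, adjusted p = 0.631). A clean change of leader was found in 1 of 138 sets (0.725%) and in 35 of the 3135 neighbour pairs with different coordinates (1.12%).

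The largest estimate came from loci at low levels. On chromosome 3 (145691588 to 145701921) XLOC_019435 had 38.1, 35.8 and 34.7 RPKM in control, was listed at 0 in microgravity replicates 1 and 2, and had 67.2 in replicate 3. XLOC_019985 had 10.5 and 14.7 RPKM in control replicates 1 and 3, was listed at 0 in replicate 2, and had 33.9, 52.7 and 23.6 in microgravity. The log2 difference of -5.85 ± 2.08 (SE) rests on the values listed at 0 and on the pseudocount. XLOC_019985 was higher in every microgravity library than in any control library, and XLOC_019435 had both its lowest and its highest value in microgravity. Further sets had a higher mean of the minor locus in microgravity. On chromosome 18 (66877649 to 66884244) XLOC_015101 had 22.1 ± 10.4 RPKM (SD, n = 3) in control and 41.1 ± 17.2 in microgravity, with overlap, while XLOC_014755 had 122 ± 47.9 and 81.0 ± 28.2. On chromosome 12 (74943860 to 74952572) XLOC_006980 had 7.55 ± 6.37 and 26.2 ± 3.16, without overlap.

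In the 2 sets with a larger lead in microgravity at unadjusted p under 0.05 (limma), the minor locus was lower there. On chromosome 18 (8877382 to 8938609) XLOC_014867 had 22.9, 31.5 and 18.9 RPKM in control and 3.68, 3.11 and 9.10 in microgravity, while XLOC_014866 had 168 ± 91.0 and 157 ± 54.7 RPKM (SD, n = 3). On chromosome 3 (58721191 to 58787580) XLOC_019653 had 37.2, 37.7 and 33.99 RPKM in control and 11.5, 24.6 and 20.1 in microgravity, beside 1036 ± 84.3 and 973 ± 83.2 for XLOC_019076. In both sets the minor locus did not overlap between groups and the leading locus did. The next 3 sets with a larger lead, at unadjusted p between 0.0567 and 0.0642, lay on chromosome 12 (17568358 to 17597987), chromosome 3 (103284025 to 103338764) and chromosome 17 (41205698 to 41259207), with leading shares of 61.5% and 71.4%, 73.4% and 83.5%, and 50.2% and 69.2% in control and microgravity.

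**Figure D5:**
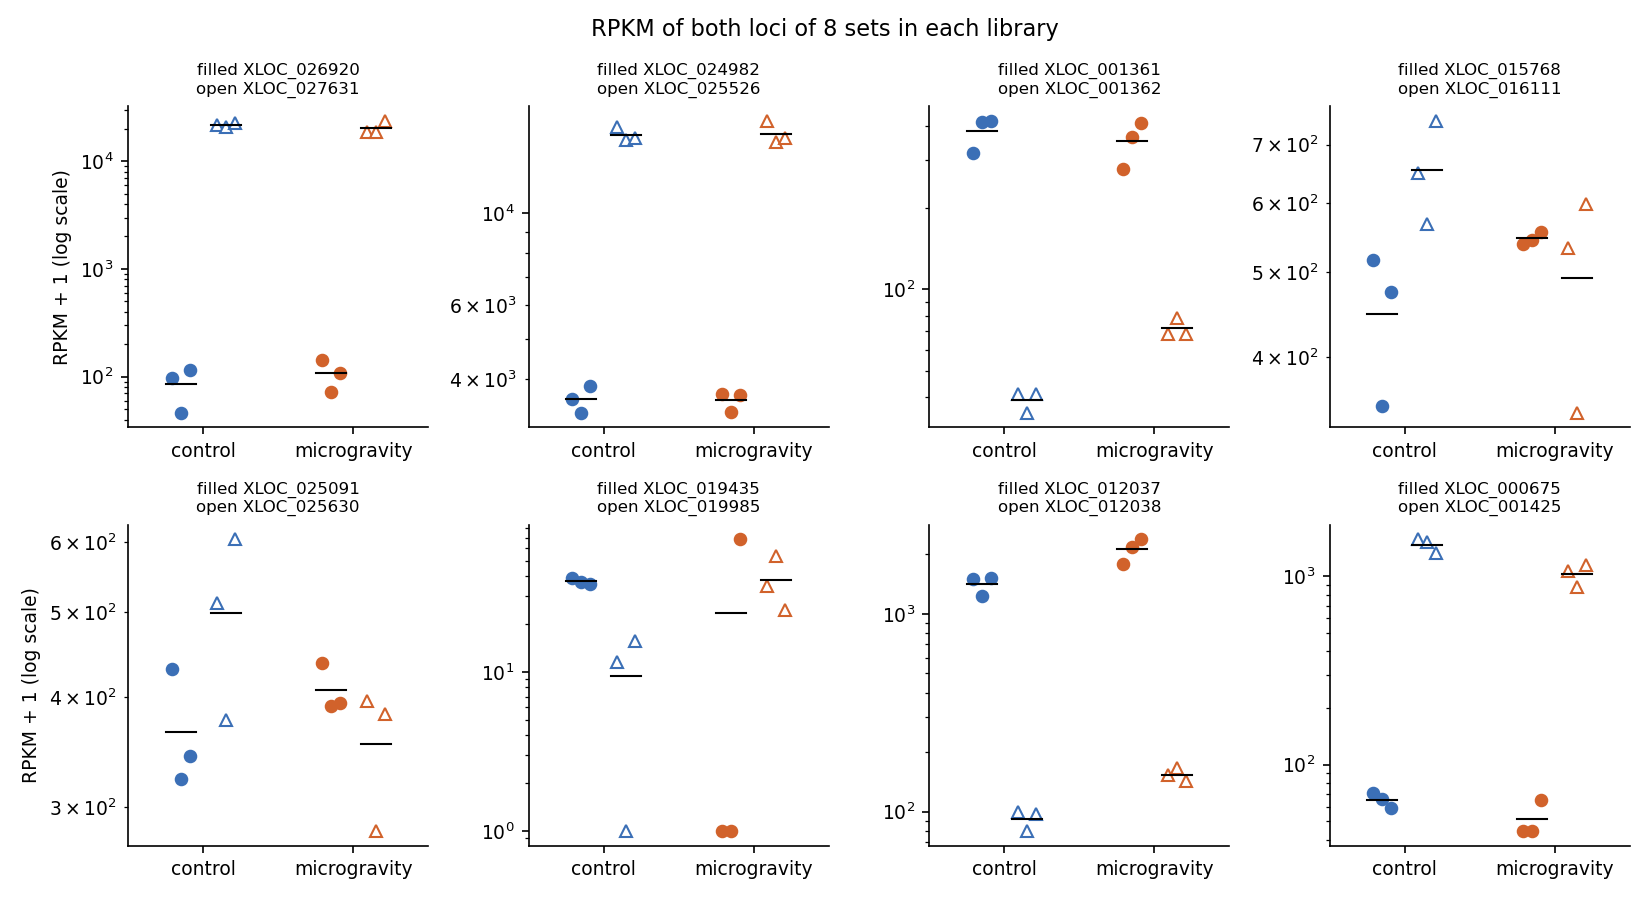
RPKM + 1 on a log axis (y) of both loci of 8 sets in the 3 control (blue) and 3 microgravity (orange) libraries; filled circles and open triangles are the 2 loci named above each panel and bars are means. The sets of XLOC_027631 and XLOC_025526 keep a wide gap in both groups, XLOC_001362 is higher in microgravity while XLOC_001361 overlaps, XLOC_025630 and XLOC_025091 exchange places, and both loci of the last 2 sets have the same direction.

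Single loci of the sets were compared in the fit over all 3301 loci that passed the same filter, 296 of them with shared coordinates. Again 0 passed the adjusted threshold, as did 0% of all loci (limma, lowest adjusted p = 0.493 among the members). At an unadjusted p under 0.05 there were 25 (8.45%), 15 higher and 10 lower, beside 7.91% of all loci (4.82% higher and 3.09% lower). Without trend and robust moderation limma gave 0 adjusted and 24 unadjusted calls, beside 246 unadjusted calls over all loci. With libraries scaled to the same median the split was 13 and 13, beside 273 calls over all loci. The groups did not overlap at 49 of 297 loci (16.5%), beside 13.6% of all loci, and the median log2 difference was -0.01, beside -0.0037 over all loci. The 95% interval lay within 2-fold for 170 of 296 members (57.4%), beside 48% of all loci. The members were also more abundant, with a median level of 100.7 RPKM against 72.8 over all loci.

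The 25 loci fell in 24 sets, so in 1 set only did both members reach it. Members of a set differed in the same direction in 66 of 137 sets (48.2%), and neighbours with different coordinates in 50.7%. That 1 set lay on chromosome 16 (19065318 to 19198945), where both loci came from the same pass of identifiers. XLOC_012037 had 1492, 1227 and 1523 RPKM in control and 1787, 2183 and 2378 in microgravity. XLOC_012038 had 98.4, 78.7 and 96.0 RPKM in control and 151, 164 and 142 in microgravity. Both were higher in every microgravity library than in any control library, with log2 differences of 0.58 ± 0.14 and 0.74 ± 0.22 (SE; limma, adjusted p = 0.493 and 0.498). Their ratio differed by -0.16 (95% interval -0.68 to 0.35), with a leading share of 94.0% ± 0.132 (SD, n = 3) in control and 93.2% ± 1.10 in microgravity.

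In the sets of the other members named here for the smallest p, the partner's groups overlapped. This did not hold for all 25 loci. On chromosome 1 (185328311 to 185388139) XLOC_000652 had 22.1, 21.0 and 14.3 RPKM in control and 34.7, 52.5 and 51.8 in microgravity (limma, unadjusted p = 0.0148). Its partner XLOC_000651 had 166.3, 183.4 and 194.6 RPKM and then 195.2, 284.4 and 226.1, also without overlap. On chromosome 12 (86060701 to 86084739) XLOC_007037 had 16.8, 22.4 and 23.7 RPKM in control and 86.1, 72.2 and 37.9 in microgravity (log2 difference 1.53 ± 0.42, SE; limma, adjusted p = 0.498), while XLOC_006616 had equal means of 37.9 RPKM in both groups. On chromosome 1 (192253921 to 192270849) XLOC_001425 had 1571, 1521 and 1323 RPKM in control and 1064, 878 and 1143 in microgravity (limma, adjusted p = 0.498). Its partner XLOC_000675 had 69.7, 64.7 and 58.0 RPKM and then 43.4, 43.5 and 63.6, lower in mean as well (log2 difference -0.37; limma, adjusted p = 0.750), and the leading share was 95.8% ± 0.0893 (SD, n = 3) and 95.4% ± 0.679. On chromosome 8 (12022467 to 12192817) XLOC_028725 had 66.9, 69.5 and 61.0 RPKM in control and 49.0, 13.9 and 19.5 in microgravity, while XLOC_029353 had 23.5 ± 28.0 and 40.1 ± 21.0 (SD, n = 3), and this set was among the 10 by balance (log2 difference -2.68 ± 1.08, SE; limma, adjusted p = 0.631).

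Summing the loci of each set gives a level that does not depend on how it was divided. Of 3150 distinct intervals tested, 145 were sets, and 0 passed the adjusted threshold (0% of all intervals; limma, lowest adjusted p = 0.439 among the sets). At an unadjusted p under 0.05 there were 15 sets (10.3%), 9 higher and 6 lower, beside 8.03% of all intervals (4.92% higher and 3.11% lower). The split was 5 and 7 with libraries scaled to the same median, and the count was 6 in limma without trend and robust moderation, 8 without control replicate 2 and 9 without microgravity replicate 2. Over all 3150 intervals the count was 264 with median scaling and 233 without trend and robust moderation. It was 180 without control replicate 2 and 199 without microgravity replicate 2, against 253 in the main fit. For the sum the 95% interval lay within 2-fold for 125 of 145 sets (86.2%; 48.7% over all intervals), so set totals were bounded far more often than the balance inside them. A set sum joins 2 or 3 loci, and single members already had a median level of 100.7 RPKM against 70.3 for other loci. Whether the intervals of the sets were narrower at equal level was not tested.

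The sums with the smallest p in each direction were those of the 2 abundant sets already given, on chromosome 16 (log2 difference 0.59 ± 0.14, SE; limma, adjusted p = 0.439) and on chromosome 1 at 192253921 (-0.52 ± 0.14, SE; adjusted p = 0.5005). The next higher sum was on chromosome 19 (31858346 to 31868640), where XLOC_015792 and XLOC_016132 summed to 291, 320 and 330 RPKM in control and 559, 438 and 403 in microgravity. Neither of its loci was separated between the groups: XLOC_016132 had 110, 160 and 92.9 RPKM and then 65.1, 223 and 160. The next lower sum was that of the shortest set interval, 789 bp, on chromosome 2 (27918758 to 27919547), where XLOC_016761 and XLOC_017530 summed to 73.5, 108 and 73.9 RPKM in control and 12.0, 71.5 and 21.5 in microgravity. In microgravity XLOC_016761 was listed at 0 in replicate 1 and XLOC_017530 at 0 in replicate 3. The sums of 12.0 and 21.5 are therefore each the level of 1 locus.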

How the data were processed

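Per the labels' protocols, C57BL/6 zygotes were frozen and lysed, and Illumina libraries were built from single-cell cDNA, 3 from control and 3 from simulated microgravity, grouped here by sample title. The authors deposited 1 table per library with RPKM values, per the file headers, for the same 3307 loci in the same order. The genome build is mm9 per the submitters' processing notes. The aligner, assembler, counting method, strand use and scaling length were not given in the sources used here, and read totals are unknown. How reads were divided between loci at the same coordinates could change every share. The reference at hand was of another build (GRCm38), so no gene name or sequence was assigned. The members and lists were chosen with earlier results of these data known.

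limma 3.58.1 in R 4.3.3 was fitted with trend and robust moderation on log2(RPKM + 1) of all loci, on the log2 ratio within all pairs of neighbouring loci, and on the sum per distinct interval. Features needed at least 1 RPKM in at least 3 libraries, for both loci of a pair. Tests were two-sided with Benjamini-Hochberg adjustment over each whole table and a threshold of 0.05. Fold changes on this scale understate changes at low levels. The fits were tested on simulated data. Sets were named in full by rule: the 6 highest by summed level, the 5 with the smallest p in the balance in each direction, the 4 largest and 4 smallest ratios, sets of 3, clean changes of leader, the 3 members with the smallest p in the locus fit in each direction and the 2 set sums likewise, and the 3 highest and 3 lowest correlations; the set with both loci at 0 was chosen after its values were seen. Alternatives were other pseudocounts, filters, scalings and moderation, a replicate term and leaving out each library.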

Additional observations from a re-analysis of the deposited data

How the results depend on the processing

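With the replicate number of the titles as a block, 0 members, 0 balances and 0 set sums passed the adjusted threshold, and 26 members, 12 identical-coordinate pairs and 13 set sums had an unadjusted p under 0.05, against 25, 11 and 15 without it. Over all features the block gave 255 of 3301 loci, 258 of 3275 pairs and 242 of 3150 intervals, against 261, 252 and 253 without it. Same-numbered libraries did not deviate together over all loci (correlations of 0.017, -0.0037 and -0.017), and 1 of the 3 control libraries correlated best with its own number, so the block was not taken to pair libraries.

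In limma the count of 0 at the adjusted threshold held for members, balances and set sums under every alternative run. At unadjusted p under 0.05, leaving out single libraries gave 18 to 33 members, 4 to 11 identical-coordinate pairs and 8 to 18 set sums. Over all features the same runs gave 190 to 310 of 3301 loci, 186 to 271 of 3275 pairs and 180 to 298 of 3150 intervals. Limma without trend and robust moderation gave 6 set sums, beside 233 of 3150 intervals. The share of the pair sum in place of the log2 ratio gave 16 identical-coordinate pairs, beside 283 of all 3271 pairs (the cause was not tested). With the share, 1 of all pairs passed the adjusted threshold, and the lowest adjusted p of an identical-coordinate pair was 0.466 (limma). The share could not be computed for 4 pairs with both loci at 0 in a library. One leader throughout was found in 102 of all 145 sets, in 102 to 109 without single libraries, and in 93 of the 132 sets whose members all had a mean of at least 20 RPKM. A locus that leads all 6 libraries still leads when 1 is left out, so the count without single libraries could not fall below 102. The locus with the higher mean in control led all 3 microgravity libraries in 114 sets, an easier criterion than all 6 libraries. The median leading share lay between 74.8% and 76.9% and the median absolute log2 ratio between 1.66 and 1.73. Of 27 named differences, 24 kept their direction under all alternatives run. Most of the 27 were named for a small p in these same libraries, so a kept direction among those was largely fixed in advance. The 3 that turned were all among the 6 sets named by summed level. The balance differences of XLOC_025526, XLOC_025538 and XLOC_029162, all near 0, turned: to -0.046 without control replicate 3 and -0.0070 without microgravity replicate 1 (range without single libraries -0.046 to 0.058), to 0.12 without control replicate 2 and 0.13 without microgravity replicate 2 (range -0.22 to 0.13), and to -0.050 without control replicate 1 (range -0.050 to 0.24). Read totals are unknown, so the part of counting error in these spreads cannot be given.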
